A study of Mus musculus with 191 samples.

Results

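Lungs of mice that ate the organophosphorus insecticide malathion for 13 weeks were set against lungs of mice that ate plain chow. The malathion animals were chosen as the arrays whose titles carry the code MALA, and the controls as the arrays whose titles carry FCO2, both of array batch RSTLRI601_1. That gave 4 MALA arrays of the 133 exposed arrays in the series and 4 FCO2 arrays of its 58 control arrays. All animals were female B6C3F1 mice, the first cross of C57BL/6 and C3H parents, 18 weeks old at collection. RNA of the right lung lobe was measured on Affymetrix mouse expression arrays. The dose of malathion is labelled inconsistently: the treatment label gives 14800 ppm in the diet and the titles give 16000. The other chow-fed groups of the batch received diazinon at 200 ppm (DIAZ), 4-nitroanthranilic acid at 10000 ppm (NAAC) or 2,2-bis(bromomethyl)-1,3-propanediol at 1250 ppm (BBMP), with 4 arrays each, for the same 13 weeks. Their fold changes against chow share the FCO2 arrays with those of malathion. The labels number the animals and show no pooling, and MALA and FCO2 hold different animals. Replicate numbers below follow the order of deposit and only name an array.

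Malathion is a phosphorodithioate that cytochrome P450 enzymes oxidise to malaoxon, the form that blocks acetylcholinesterase and other serine hydrolases. Carboxylesterases split malathion at its ester groups and so detoxify it, and paraoxonase 1 is an esterase known for hydrolysing the oxons of several organophosphates. Heat shock proteins are chaperones that cells make through the factor HSF1 when proteins misfold or temperature rises, whereas the RNA-binding protein CIRBP is known for rising when cells cool. In the airway, club cells carry much of the P450 activity of the mouse lung and secrete secretoglobins such as SCGB3A2.

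Values were deposited on a log scale, read here as log2 although no source states the base, and each array is centred near 0. A value is therefore a level relative to the centre of its own array, and levels of different genes are not compared. Lung identity markers were high in both groups. Sftpc, surfactant protein C of alveolar type 2 cells, lay between 6.80 and 6.85 in MALA arrays and between 6.77 and 6.95 in FCO2 arrays. Ager, a marker of alveolar type 1 cells, lay between 6.55 and 6.75 in MALA arrays and between 6.52 and 6.72 in FCO2 arrays. Pairwise correlations of whole profiles ran from 0.982 to 0.993 within MALA and from 0.980 to 0.994 within FCO2, against 0.960 to 0.988 between MALA and FCO2 arrays. The 3' minus 5' signal of the control probe sets, a measure of RNA integrity, averaged 0.467 in MALA and 0.521 in FCO2 arrays for beta-actin (two-sided exact permutation p = 0.371, n = 4 each). For Gapdh it averaged 0.174 in MALA and 0.248 in FCO2 arrays (exact p = 0.429, n = 4 each). The smallest p that 4 arrays against 4 allow is 0.0286. RNA integrity numbers are labelled for 3 MALA arrays, from 7.9 to 8.3, and for 2 FCO2 arrays, from 7.8 to 8.1.

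Against chow, 134 of 13524 genes tested were higher in malathion-fed lungs (0.991%) and 97 were lower (0.717%), by limma with a Benjamini-Hochberg adjusted p under 0.05. Over all genes the median log2 fold change was 0.01. Largest among the named rises were the clock output factor Dbp, Cirbp and the keratin-associated gene Krtap17-1. Among the falls were the chaperone Hsph1, the natriuretic peptide clearance receptor Npr3, the co-chaperone Dnaja1 and Pon1. The number of calls depended strongly on single arrays: it was 55 without MALA replicate 3, 92 without FCO2 replicate 2, 103 without MALA replicate 1, 130 without FCO2 replicate 3 and 151 without FCO2 replicate 4. The calls that held with each of the 8 arrays left out numbered 46, of which 23 were higher and 23 lower. A further limit is that in tissue RNA fewer cells of a type and less RNA per cell cannot be told apart.

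Hsph1, which encodes a large heat shock protein that helps HSP70 chaperones exchange nucleotide, was the gene with the largest fall. Its values were 1.30, 1.80, 1.04 and 0.94 in the 4 MALA arrays, against 3.60, 3.10, 3.48 and 3.06 in the 4 FCO2 arrays. Every MALA array lay below every FCO2 array. The log2 fold change was -2.04 ± 0.33 (SE, adjusted p = 1.08e-05 by limma), a 4.11-fold lower level. Among the 34 exposed groups of the series it was the lowest, and the next, at -1.20, was COUM, a group given its chemical by gavage. In the batch, the 16 control arrays of all vehicles ran from 2.39 to 4.00, with a median of 3.09. Of the 13 groups of the batch, only DBET, another gavage group, had a higher Hsph1 mean (3.605) than FCO2 (3.309).

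**Figure D1:**
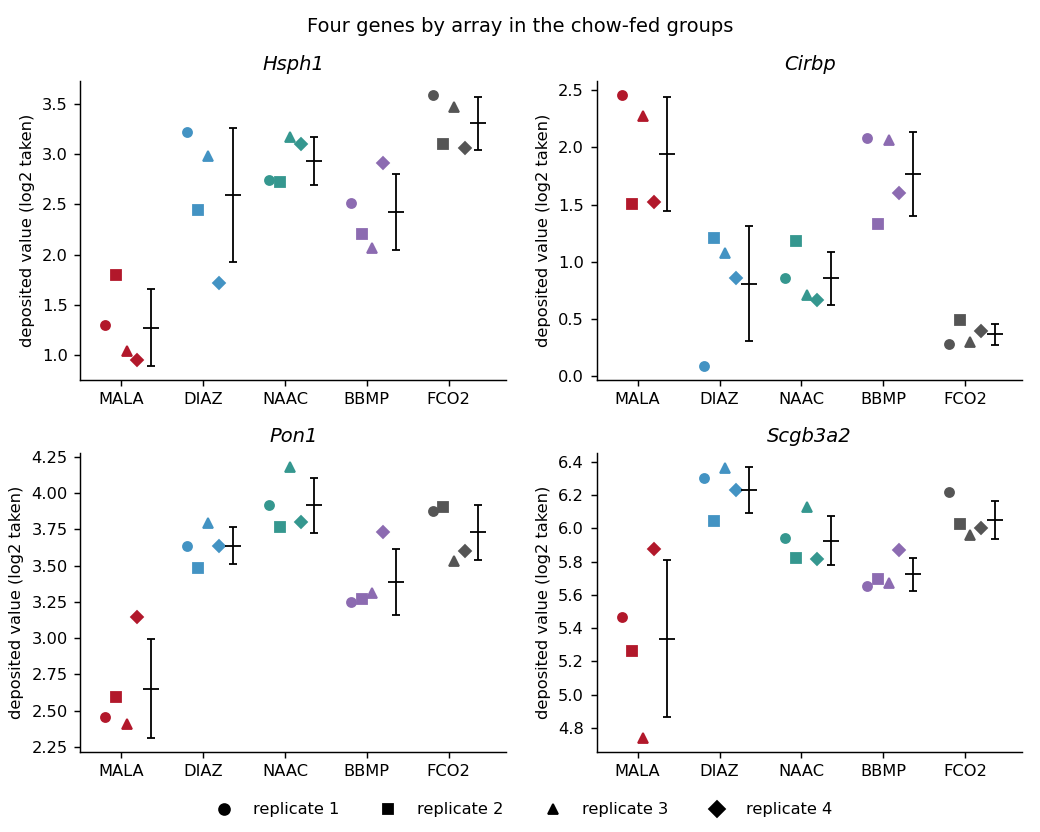
Deposited values of Hsph1, Cirbp, Pon1 and Scgb3a2 (y axis, log2 taken) in the 5 chow-fed groups of the batch (x axis, malathion at left and chow controls at right). Symbols are single arrays and bars give the mean and SD of 4. All 4 MALA arrays lie below all FCO2 arrays for Hsph1, Pon1 and Scgb3a2 and above them for Cirbp.

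Of 31 heat shock proteins and co-chaperones tested, 11 fell and none rose, against 0.717% of all genes lower, and their median log2 fold change was -0.59 against 0.01 for all genes. This list, like those below, was chosen with earlier results of these data known, so its share against all genes is not a test. The 11 were Hsph1, Dnaja1, Ahsa2, Hsp90aa1, Hspd1, Chordc1, Stip1, Hspa8, Ahsa1, Dnaja4 and Hspa2. Hsp90aa1, the inducible cytosolic HSP90, had values of 3.24, 3.37, 2.91 and 2.54 in MALA arrays against 4.15, 4.29, 3.93 and 3.94 in FCO2 arrays. Its groups did not overlap, and the log2 fold change was -1.06 ± 0.29 (adjusted p = 0.0308). Among HSP90 co-chaperones, Ahsa2, an activator of its ATPase, fell by 1.15 ± 0.24 on the log2 scale (adjusted p = 0.00158), and Chordc1 by 1.01 ± 0.26 (adjusted p = 0.0201). Stip1, the adaptor that joins HSP70 to HSP90, fell by 0.74 ± 0.19 (adjusted p = 0.0200). Cacybp (-0.98 ± 0.29, adjusted p = 0.0515), St13 (-0.61 ± 0.18, adjusted p = 0.0620) and Fkbp4 (-0.53 ± 0.17, adjusted p = 0.0750) did not pass. Over every probe set, another of St13 passed at -0.60 ± 0.15 (adjusted p = 0.0121). So did 2 of 4 for Hspa4 and 1 of 5 for Hspa4l, which were not among the 11. Of members that were, 2 of 4 passed for Hsp90aa1 and for Hspa8, 1 of 2 for Ahsa1 and 1 of 3 for Dnaja4.

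Dnaja1, a J-domain partner of HSP70, stood at 2.61, 2.69, 2.10 and 1.94 in MALA arrays against 3.74, 3.96, 3.51 and 3.30 in FCO2 arrays. The groups did not overlap, and its log2 fold change was -1.29 ± 0.34 (adjusted p = 0.0223). Hspd1, the mitochondrial chaperonin HSP60, stood at 2.14, 2.25, 1.67 and 1.69 in MALA arrays against 3.00, 3.12, 2.82 and 2.94 in FCO2 arrays. It fell by 1.03 ± 0.24 on the log2 scale (adjusted p = 0.00712), again without overlap. Its partner Hspe1, the co-chaperonin HSP10, had a log2 fold change of -0.62 ± 0.19 that did not pass the test (adjusted p = 0.0611), while its other, dimmer probe set passed over every probe set at -0.54 ± 0.13 (adjusted p = 0.0153). Hspa8, the constitutive HSP70, fell by 0.69 ± 0.17 (adjusted p = 0.0127).

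The stress-inducible HSP70 genes varied more between arrays. Hspa1b had a log2 fold change of -1.83 ± 0.63 (adjusted p = 0.116) and Hspa1a one of -0.81 ± 0.60 (adjusted p = 0.548). Hspa1b ran from 0.13 to 1.39 in MALA arrays and from 1.61 to 3.50 in FCO2 arrays, without overlap. All 3 of its probe sets were lower in MALA, from -1.83 to -1.74, and none was called. Hspa1a and Hspa1b are near-identical copies, so their probe sets may share signal. Small heat shock proteins did not pass the test, with -0.45 ± 0.23 for Hspb1 (adjusted p = 0.344) and -0.06 ± 0.18 for Cryab (adjusted p = 0.907). The count of heat shock members that fell was 2 without MALA replicate 3, 4 without FCO2 replicate 1, 6 without MALA replicate 4, 7 without MALA replicate 1 and 7 without FCO2 replicate 3. Within the arrays of the batch alone it was 7. There Dnaja1, Hsp90aa1, Hspa8, Dnaja4, Ahsa1 and Stip1 lost their calls, so the 7 include genes outside the 11. Of the 11 calls those of Hsph1 and Ahsa2 held with each array left out, and that of Hspd1 was lost only without MALA replicate 3 (adjusted p = 0.0760). Without MALA replicate 3 the other 8 were lost too, with adjusted p of 0.119 for Dnaja1, Hsp90aa1 and Chordc1, 0.0527 for Hspa8 and 0.0701 for Stip1. Dnaja1 and Hsp90aa1 were also lost without MALA replicate 4 or FCO2 replicates 1 or 2, Chordc1 without FCO2 replicates 1 or 2, and Hspa8 without FCO2 replicate 3. Stip1 and Dnaja4 were also lost without MALA replicates 1 or 4 or FCO2 replicates 1 or 3. Ahsa1 was also lost without MALA replicates 1 or 4 or FCO2 replicates 1, 3 or 4. Hspa2 was also lost without MALA replicate 1 or FCO2 replicates 1 or 2. The list's median stayed between -0.63 and -0.49 over the 8 single-array omissions.

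**Figure D2:**
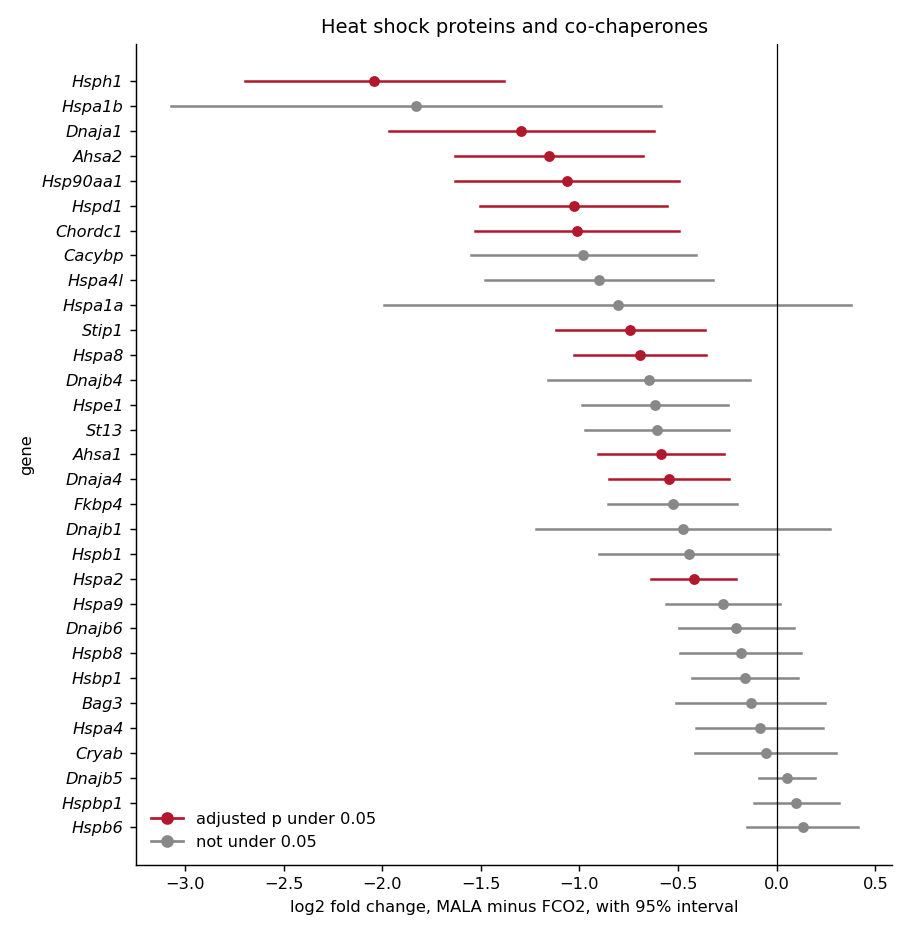
Log2 fold change between MALA and FCO2 (x axis) of the 31 heat shock proteins and co-chaperones tested (y axis), with 95% intervals from limma. The 11 members in red had an adjusted p under 0.05, all on the side of lower levels in MALA, and Hsph1 lay farthest out at -2.04.

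Promoter windows of heat shock genes that fell were read from the RefSeq table of build GRCm38.p6, because HSF1 binds repeats of the letters GAA. A window holds 300 bases around a start site. The heat shock element searched was GAA, TTC and GAA with any 2 letters between them, on both strands. It was found in 7 of 37 windows (18.9%) of the 26 tested members that matched the table, and in 0.603% of all 32851 windows. The 2 windows of Hsph1 overlap and hold the same match, so matched windows are not all separate sites. By gene, the element was found in 5 of the 26 members, and in 3 of the 9 matched members that fell. The windows of those 3 genes are shown with the matched letters in capitals. Hsph1 lies on the minus strand at chr5:149636266-149636565, Hspd1 on the minus strand at chr1:55087883-55088182 and Chordc1 on the plus strand at chr9:18292017-18292316.
Hsph1: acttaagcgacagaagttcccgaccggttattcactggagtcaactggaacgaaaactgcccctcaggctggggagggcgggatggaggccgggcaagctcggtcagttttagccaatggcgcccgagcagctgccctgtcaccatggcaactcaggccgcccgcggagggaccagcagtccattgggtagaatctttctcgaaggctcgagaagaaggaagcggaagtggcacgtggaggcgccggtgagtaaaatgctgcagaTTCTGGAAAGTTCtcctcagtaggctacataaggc
Hspd1: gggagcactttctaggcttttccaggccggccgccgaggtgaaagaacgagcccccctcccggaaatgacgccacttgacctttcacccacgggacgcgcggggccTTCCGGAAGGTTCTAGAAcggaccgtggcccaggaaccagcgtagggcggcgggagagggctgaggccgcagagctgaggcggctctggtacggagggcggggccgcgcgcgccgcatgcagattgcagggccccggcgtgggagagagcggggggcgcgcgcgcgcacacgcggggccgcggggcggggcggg
Chordc1: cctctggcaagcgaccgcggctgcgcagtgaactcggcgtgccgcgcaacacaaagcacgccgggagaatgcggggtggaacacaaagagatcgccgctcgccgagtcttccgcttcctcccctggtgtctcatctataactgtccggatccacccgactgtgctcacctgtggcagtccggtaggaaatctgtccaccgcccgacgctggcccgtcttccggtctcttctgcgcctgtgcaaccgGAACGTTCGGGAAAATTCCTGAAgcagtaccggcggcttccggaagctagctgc
Counted from the start site, the match in Hsph1 began at base 16, and those in Hspd1 began at bases -144 and -139 and overlapped. The 3 overlapping matches in Chordc1 began at bases -4, 2 and 7. A match describes letters only, and occupancy by HSF1 was not measured. The other 3 motifs searched were read on both strands too. The antioxidant response element, TGAC and GC with any 3 letters between them, was in 9 of 35 windows (25.7%) of the NRF2 genes and Ces1g, in 2 of 9 (22.2%) of those called and in 12.4% of all windows. The E-box CACGTG was in 2 of 6 windows of Dbp, Tef, Hlf and Arntl, both of Tef, and in 7.15% of all. The D-box, TTATG and AA with any letter between them, was in 0 of 8 windows of these genes and Cirbp, and in 3.38% of all.

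Of 22 genes of endoplasmic reticulum folding and stress, 5 fell and none rose, against 0.717% of all genes lower, and their median log2 fold change was -0.35 against 0.01 for all genes. The 5 were the folding genes Hspa5 and Pdia6 and the stress-related Ddit3, Manf and Creld2. Hspa5, the main HSP70 of that compartment, stood at 3.58, 3.79, 3.61 and 3.43 in MALA arrays against 4.36, 4.40, 4.35 and 4.31 in FCO2 arrays. No array of one group reached the range of the other, and the log2 fold change was -0.75 ± 0.20 (adjusted p = 0.0253). FCO2 had the highest Hspa5 mean of the 13 groups of the batch. The 12 control arrays of other vehicles ran from 3.77 to 4.48, and MALA replicate 2 lay within that range. Over every probe set, 2 of 3 for Hspa5 were called, and the other stood at -0.12 ± 0.09 (adjusted p = 0.566). Ddit3, the stress transcription factor CHOP, fell by 0.72 ± 0.16 (adjusted p = 0.00353) and Creld2, a secreted stress marker, by 0.74 ± 0.18 (adjusted p = 0.0137). The growth factor Manf fell by 0.81 ± 0.22 (adjusted p = 0.0338), and the disulfide isomerase Pdia6 by 0.46 ± 0.13 (adjusted p = 0.0482). The count was 1 without MALA replicate 1, FCO2 replicate 1 or FCO2 replicate 3, 2 without MALA replicate 3 and 3 without MALA replicate 4, and 9 with the arrays of the contrast alone. Ddit3 kept its call with each array left out. Hspa5 lost it without MALA replicates 1, 3 or 4 or FCO2 replicates 1, 2 or 3 (adjusted p up to 0.0902), Manf without MALA replicates 1, 3 or 4 or FCO2 replicates 1 or 3 (up to 0.112) and Creld2 without MALA replicate 1 or FCO2 replicates 1 or 3 (up to 0.0646).

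Cirbp moved the other way. It stood at 2.46, 1.50, 2.27 and 1.53 in MALA arrays, against 0.28, 0.49, 0.30 and 0.39 in FCO2 arrays. The lowest MALA array lay above the highest FCO2 array. Its log2 fold change was 1.57 ± 0.24 (adjusted p = 2.00e-06), a 2.98-fold higher level and the highest of the 34 exposed groups. The next was BBMP at 1.40. In the 12 control arrays of other vehicles in the batch, Cirbp had a median of 0.57 and reached 1.51 in the highest. MALA replicate 2, at 1.50, lay within their range. FCO2 had the lowest Cirbp mean of the 13 groups of the batch. Rbm3, another cold-inducible RNA-binding gene, was not tested.

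Among enzymes that handle organophosphates, Pon1 fell. Its values were 2.46, 2.59, 2.41 and 3.15 in MALA arrays, against 3.88, 3.90, 3.54 and 3.60 in FCO2 arrays. The groups did not overlap, and replicate 4 was the MALA array nearest to chow. Pon1 had a log2 fold change of -1.08 ± 0.21 (adjusted p = 4.55e-04), a 2.11-fold lower level. Only the groups inhaling naphthalene at its higher concentrations, NPTH-30 at -2.11 and NPTH-20 at -1.52, were lower among the 34. Its relatives Pon2 (-0.11 ± 0.15, adjusted p = 0.776) and Pon3 (-0.07 ± 0.14, adjusted p = 0.843) did not pass the test. Nor did Bche, butyrylcholinesterase, at -0.10 ± 0.10 (adjusted p = 0.688), and Ache, the acetylcholinesterase, was not tested.

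Of 12 carboxylesterases tested 1 rose and none fell, against 0.991% of all genes higher and 0.717% lower. Ces1g, a member of the carboxylesterase 1 family, stood at 0.80, 0.59, 1.05 and -0.09 in MALA arrays against -0.40, -0.43, -0.25 and -0.36 in FCO2 arrays. The groups did not overlap, although MALA replicate 4 was close to chow, and the log2 fold change was 0.95 ± 0.17 (adjusted p = 6.71e-05). Its paralogs Ces1d (0.03 ± 0.12, adjusted p = 0.942) and Ces1f (-0.29 ± 0.16, adjusted p = 0.376) did not pass the test. None of 17 other serine hydrolases reported as organophosphate targets, of 10 genes of cholinergic signalling and of 19 P450s and flavin monooxygenases was called. At the shares of all genes given above, lists of these sizes can hold no call. In the P450 list Cyp2c29 came nearest, at -1.17 ± 0.35 (adjusted p = 0.0520), beside -1.36 in DIAZ and -1.08 in BBMP against the same controls.

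Genes of the oxidative stress response under the factor NRF2 included 6 of 35 that rose, against 0.991% of all genes higher, and none that fell, with a median log2 fold change of 0.15 against 0.01 for all genes. Akr1b8, an aldo-keto reductase, stood at 3.25, 2.55, 3.20 and 1.28 in MALA arrays against 1.95, 1.31, 0.95 and 1.24 in FCO2 arrays. Replicates 1 to 3 of MALA lay above all FCO2 arrays, and replicate 4 lay within the chow range. The log2 fold change was 1.21 ± 0.18 (adjusted p = 1.98e-06), and 1.64 without MALA replicate 4. Gpx2, a glutathione peroxidase of epithelia, stood at 3.55, 3.12, 3.71 and 1.91 in MALA arrays against 2.38, 1.98, 1.83 and 2.00 in FCO2 arrays. Again only replicate 4 lay within the chow range, and the log2 fold change was 1.02 ± 0.19 (adjusted p = 1.59e-04). The quinone reductase Nqo1 (0.65 ± 0.12, adjusted p = 9.62e-05), the carbonyl reductase Cbr3 (0.61 ± 0.17, adjusted p = 0.0338), the thioredoxin reductase Txnrd1 (0.53 ± 0.13, adjusted p = 0.0155) and the sulfiredoxin Srxn1 (0.33 ± 0.10, adjusted p = 0.0479) also rose.

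These NRF2 calls depended on the spread used. With the arrays of the contrast alone 0 of the 35 passed, with the amount of RNA sent to the array core as a factor 1 passed, and without MALA replicate 4 the count was 10. It was 3 without MALA replicates 1 or 3 or FCO2 replicate 3. Akr1b8, Gpx2 and Nqo1 kept their calls with each array left out, and Cbr3 lost it without any array but MALA replicate 4 or FCO2 replicate 1 (adjusted p up to 0.231). That amount was 15 µl for 3 MALA arrays and 10 µl for 1, and 15 µl for 2 FCO2 arrays and 10 µl for 2. The fit with it as a factor also used only the chow-fed groups of the batch. Its result therefore does not separate the amount from the smaller set of arrays. Over the 134 genes that rose, MALA replicate 4 was the least shifted of the 4 arrays for 75 and replicate 2 for 42, and replicate 4 lay within the chow range for 25. The other MALA arrays lay within it for 0, 4 and 0 genes. Over the 97 that fell, replicate 2 was the least shifted for 41 and replicate 4 for 32, and replicate 4 lay within the chow range for 6, against 2, 1 and 1 for replicates 1 to 3. For Hsph1 and Dbp replicate 4 was the array farthest from chow.

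**Figure D3:**
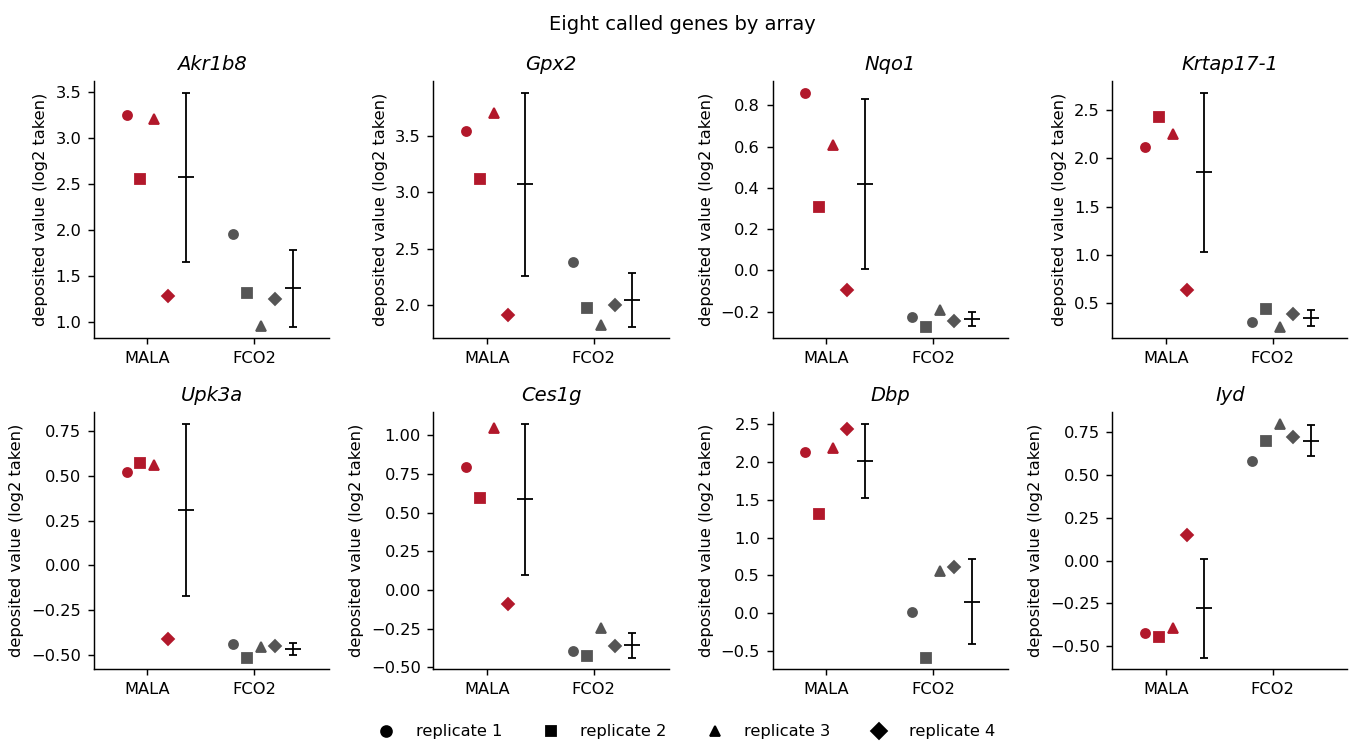
Deposited values (y axis, log2 taken) of 8 called genes in MALA arrays (left) and FCO2 arrays (right), with replicates marked by symbol and bars for mean and SD of 4. MALA replicate 4 lies near the FCO2 arrays for Akr1b8, Gpx2, Nqo1, Krtap17-1 and Upk3a, and with the other MALA arrays for Dbp.

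Airway epithelial genes changed in part. Scgb3a2, the secretoglobin that club cells release into the airway lining, stood at 5.47, 5.26, 4.74 and 5.88 in MALA arrays against 6.22, 6.02, 5.96 and 6.00 in FCO2 arrays. Every MALA array was lower, replicate 3 most and replicate 4 least. The 12 control arrays of other vehicles in the batch ran from 5.44 to 6.49, and MALA replicates 1 and 4 lay within that range. The log2 fold change was -0.71 ± 0.12 (adjusted p = 6.29e-05), a 1.64-fold lower level and the lowest of the 34 exposed groups, before BBMP at -0.33. Of 25 club cell genes 3 fell, against 0.717% of all genes, and 1 rose, against 0.991%, and their median was -0.18. The aldehyde oxidase Aox3 fell by 0.87 ± 0.17 (adjusted p = 6.25e-04). Iyd, which removes iodine from iodotyrosines, fell by 0.98 ± 0.15 (adjusted p = 1.98e-06).

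Upk3a, a uroplakin that marks a subset of club cells, was the member that rose. It stood at 0.52, 0.57, 0.56 and -0.41 in MALA arrays against -0.44, -0.51, -0.46 and -0.45 in FCO2 arrays. The FCO2 values and that of MALA replicate 4 lay below -0.386, the median of all values used as the filter. Replicates 1 to 3 stood far above chow and replicate 4 beside it, and the log2 fold change was 0.78 ± 0.09 (adjusted p = 2.82e-11). That SE and p rest on a spread shared over all groups of the series, while the SD of the MALA arrays themselves was 0.48. Defining club cell genes did not pass the test: Scgb1a1 was at -0.18 ± 0.10 (adjusted p = 0.418) and Cyp2f2 at -0.29 ± 0.10 (adjusted p = 0.145). Even so, Scgb1a1 lay between 6.46 and 6.61 in MALA arrays and between 6.68 and 6.80 in FCO2 arrays, without overlap. With the arrays of the contrast alone, neither Scgb3a2 nor Upk3a passed. In the ciliated cell list 1 of 20 fell and in the alveolar type 2 list 1 of 17, against 0.717% of all genes. The ciliated gene was Cdhr3, at -0.46 ± 0.12 (adjusted p = 0.0186), a call lost without MALA replicate 3 or FCO2 replicates 1 or 2 (up to 0.161). The alveolar type 2 gene was the complement gene Hc, at -0.61 ± 0.18 (adjusted p = 0.0469), a call lost when any 1 of the 8 arrays was left out.

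Krtap17-1, a keratin-associated gene, showed the highest fold change of the 34 exposed groups. It stood at 2.12, 2.43, 2.25 and 0.63 in MALA arrays against 0.31, 0.43, 0.25 and 0.38 in FCO2 arrays. All MALA arrays were above chow, replicate 4 by the least, and the log2 fold change was 1.51 ± 0.16 (adjusted p = 1.67e-12). That SE and p rest on a spread shared over all groups of the series. The SD of the 4 arrays themselves was 0.83 in MALA and 0.08 in FCO2. In the 12 control arrays of other vehicles in the batch Krtap17-1 reached 0.64, beside MALA replicate 4. The tetraspanin Tspan4 (0.91 ± 0.17, adjusted p = 1.88e-04) rose as well, and so did Tmem37, at 0.72 ± 0.15 (adjusted p = 0.00125). Npr3 fell by 1.35 ± 0.36 (adjusted p = 0.0300) and the adhesion molecule Alcam by 0.84 ± 0.23 (adjusted p = 0.0291). Lonrf3 fell by 0.81 ± 0.16 (adjusted p = 4.55e-04). Ccn2, a matricellular growth factor, rose by 0.76 ± 0.22 (adjusted p = 0.0484). The calls of Npr3 and Ccn2 were each lost without 6 of the 8 arrays, Npr3 keeping it without MALA replicate 1 or FCO2 replicate 1 and Ccn2 without MALA replicate 4 or FCO2 replicate 1. Alcam lost its call without MALA replicates 3 or 4 or FCO2 replicate 2 (adjusted p up to 0.255), with the mean of all probe sets, and with the arrays of the contrast or of the batch alone. Of its 5 probe sets 1 was called, and all 5 were lower in MALA, from -0.84 to -0.19.

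Inflammatory and immune genes gave few calls. Of 17 neutrophil and acute inflammation genes 2 rose, against 0.991% of all genes, with a median log2 fold change of 0.30. That median was 0.14 without MALA replicate 2 and 0.50 without MALA replicate 4, and the count was 1 without MALA replicates 1 or 3 or FCO2 replicates 1, 2 or 3, and with the arrays of the batch alone. Lrg1, an acute-phase glycoprotein, stood at 3.84, 3.85, 4.15 and 2.81 in MALA arrays against 2.69, 2.37, 2.02 and 2.68 in FCO2 arrays. The groups did not overlap, and the log2 fold change was 1.22 ± 0.23 (adjusted p = 1.99e-04). In the 12 control arrays of other vehicles in the batch Lrg1 reached 3.18, above MALA replicate 4. Lcn2, the iron-scavenging lipocalin, rose by 0.69 ± 0.19 (adjusted p = 0.0348), a call lost without MALA replicates 1 or 3 or FCO2 replicates 1, 2 or 3 (up to 0.292). The neutrophil calprotectin genes did not pass the test, with S100a8 at 1.30 ± 0.55 (adjusted p = 0.234) and S100a9 at 1.42 ± 0.57 (adjusted p = 0.207).

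In the T and NK cell list 1 of 17 rose, against 0.991% of all genes. It was Cd8b1, at 0.35 ± 0.09 (adjusted p = 0.0188), a call lost without MALA replicate 3 (0.123) or FCO2 replicate 1 (0.0568). Its FCO2 mean of -0.417 lay below -0.386, the median of all values used as the filter. None of 12 B and plasma cell genes was called, where 0.991% of all genes were higher and 0.717% lower. Their median log2 fold change was nevertheless 0.50, and their mean level ran from 0.71 to 1.49 in MALA arrays and from 0.43 to 0.77 in FCO2 arrays. That median was 0.27 without MALA replicate 1. With the arrays of the contrast alone 5 of the 12 rose. In the chow-fed groups alone, with the amount of RNA sent to the core as a factor, 2 rose. Against all 4 control sets of the batch 4 rose, and after quantile normalization 1. The part of those cells in the other results was not tested. The heart muscle list, which the cardiac sleeve of pulmonary veins can bring into lung RNA, had 0 of 15 called, against the same shares of all genes. Its mean levels ran from 0.88 to 1.78 in MALA arrays and from 0.52 to 2.43 in FCO2 arrays. FCO2 replicate 1 was the high array in that list.

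Clock genes included 3 of 20 that rose, against 0.991% of all genes, and 1 that fell, against 0.717%. With the arrays of the batch alone 1 rose and 0 fell, and the list's median log2 fold change was 0.27. Dbp, a transcription factor driven by the core clock, stood at 2.14, 1.31, 2.19 and 2.44 in MALA arrays against 0.01, -0.59, 0.56 and 0.61 in FCO2 arrays. The groups did not overlap, and its log2 fold change was 1.87 ± 0.42 (adjusted p = 0.00464). It lost the call without FCO2 replicate 2 (adjusted p = 0.0590). Its relatives Tef (0.59 ± 0.17, adjusted p = 0.0437) and Hlf (0.48 ± 0.12, adjusted p = 0.0127) rose. Tef lost its call without any array but MALA replicate 2 (adjusted p up to 0.333), and Hlf without MALA replicate 1 (0.127) or FCO2 replicate 4 (0.0537). Arntl, the core clock activator BMAL1, stood at -0.02, 0.31, 0.44 and -0.25 in MALA arrays against 0.99, 1.02, 0.86 and 0.76 in FCO2 arrays. It fell by 0.79 ± 0.18 (adjusted p = 0.00613), with no overlap, but did not pass with the arrays of the batch alone. Nor did it pass in the chow-fed groups alone with the amount of RNA sent to the core as a factor. No label gives the time of day of collection, and its part in these values was not tested. Control arrays of the batch ran from -1.33 to 1.35 for Dbp and from 0.23 to 1.32 for Arntl.

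The remaining lists gave no call, apart from Lcn2, which also stands in the glucocorticoid list of 15. With 0.991% of all genes higher and 0.717% lower, lists of these sizes can hold no call. They covered goblet cells, alveolar type 1 cells, endothelium, smooth muscle and matrix, macrophages, interferon response, MHC class II, red cells, fat, cell cycle, immediate early genes, lipid synthesis, p53 targets and the respiratory chain. Nearest to the threshold among them was H2-Oa of MHC class II, at 0.44 ± 0.13 (adjusted p = 0.0529).

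**Figure D4:**
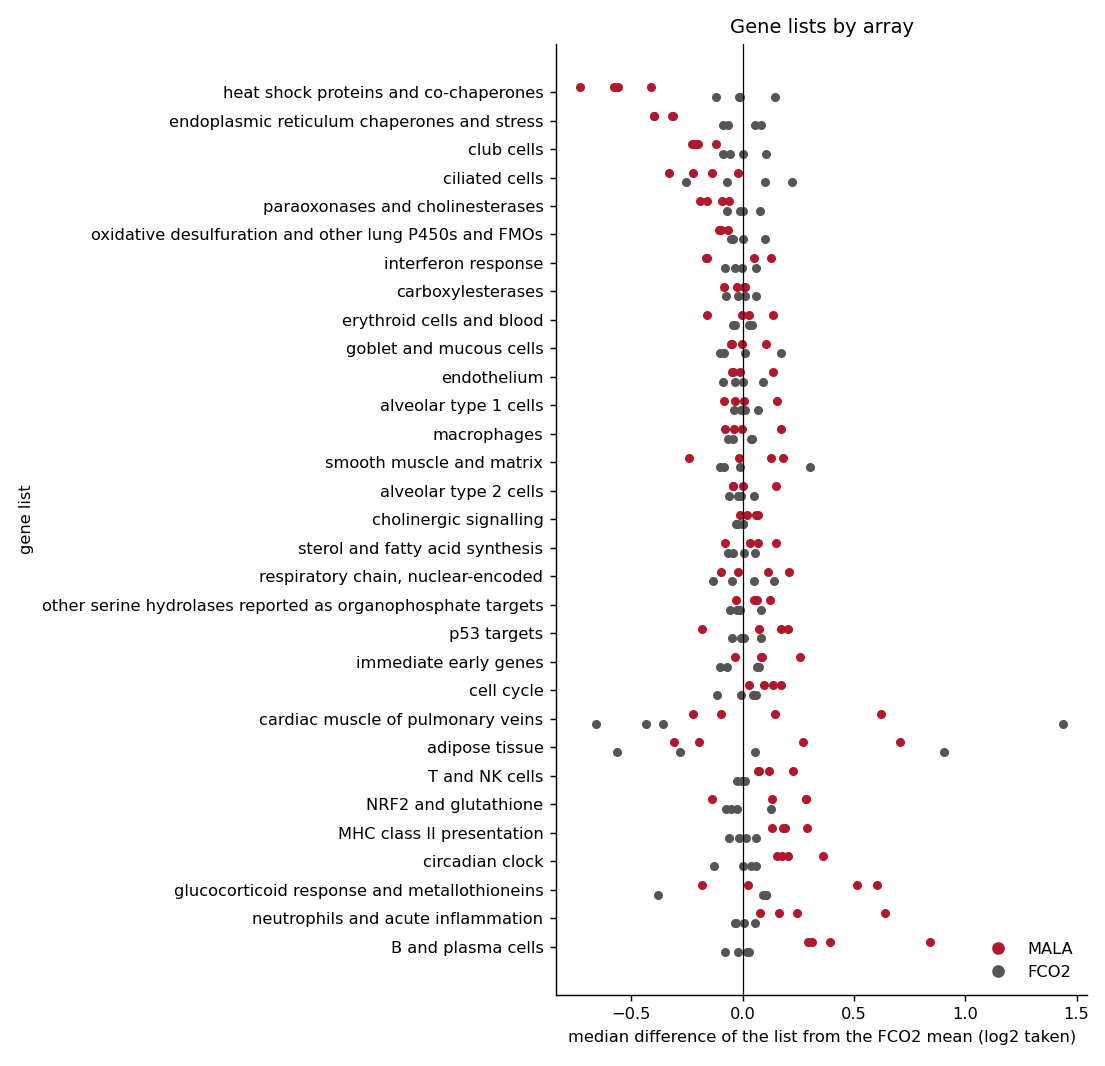
Median difference of each gene list from the FCO2 mean (x axis, log2 taken) for each MALA array (red, upper row of a list) and each FCO2 array (grey, lower row). Lists (y axis) are ordered by their MALA mean. The heat shock list lies between -0.73 and -0.41 in MALA arrays and between -0.12 and 0.15 in FCO2 arrays.

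To ask which changes set malathion apart from other exposures in chow, MALA was compared with the equal-weight mean of DIAZ, NAAC and BBMP in the same model. Here 203 genes were higher in MALA (1.5%) and 1045 were lower (7.73%). This split rested on the scaling of arrays: after quantile normalization 138 were higher and 125 lower. The median over all genes was -0.09, and 0.01 after quantile normalization. Called against both chow and the other exposures, in the same direction, were 113 genes, of which 36 were higher and 77 lower. They made up 48.9% of the calls against chow and 9.05% of those against the other exposures, and both comparisons share the MALA arrays.

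Hsph1 differed from the other exposures by -1.38 (adjusted p = 4.27e-04), Pon1 by -0.997 (adjusted p = 3.56e-05), Scgb3a2 by -0.62 (adjusted p = 1.58e-05) and Cirbp by 0.80 (adjusted p = 0.00583). Iyd, Aox3, Upk3a and Krtap17-1 passed as well, at -0.85 (adjusted p = 1.59e-07), -0.85 (adjusted p = 1.58e-05), 0.62 (adjusted p = 2.00e-10) and 0.98 (adjusted p = 2.83e-08). Lrg1 did not pass, at 0.50 (adjusted p = 0.0621). Of the 31 heat shock genes 14 were lower in MALA than in the other exposures and none was higher, against 7.73% of all genes lower, with a median of -0.48 against -0.09 for all genes. Of the 22 endoplasmic reticulum genes 11 were lower, against the same 7.73%, with a median of -0.37.

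Side by side against the shared chow controls, Cirbp was at 1.57 in MALA, 0.44 in DIAZ, 0.49 in NAAC and 1.40 in BBMP. Dbp was at 1.87 in MALA, 0.32 in DIAZ, 0.44 in NAAC and 1.66 in BBMP. Pon1 was at -1.08 in MALA, -0.09 in DIAZ, 0.19 in NAAC and -0.34 in BBMP. Hsph1 was at -2.04 in MALA, -0.72 in DIAZ, -0.38 in NAAC and -0.89 in BBMP. Krtap17-1 was at 1.51 in MALA, 0.25 in DIAZ, 0.21 in NAAC and 1.12 in BBMP, and Upk3a at 0.78 in MALA, -0.01 in DIAZ, -0.05 in NAAC and 0.53 in BBMP. Iyd was at -0.98 in MALA, -0.10 in DIAZ, 0.03 in NAAC and -0.32 in BBMP. Aox3 was at -0.87 in MALA, -0.08 in DIAZ, 0.33 in NAAC and -0.30 in BBMP. Of the 3 other groups, BBMP had the values nearest to malathion for all of these genes, so a difference from the mean of the 3 groups is not one from each of them. Diazinon is also an organophosphorus insecticide, and it was fed at a far lower concentration, so no comparison of the compounds is made.

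Whether the 4 genes vary together outside the malathion comparison was examined in the 44 other arrays of the batch, as deviations from their group means. Hsph1 and Cirbp were inversely related (r = -0.549, rho = -0.560, permutation p = 0.00206 and 8.70e-04, adjusted over 6 pairs 0.00618 and 0.00279). Leaving out the 2 arrays farthest from the median of Hsph1 gave r = -0.475. Hsph1 and Pon1 were directly related (r = 0.503, rho = 0.496, permutation p = 6.60e-04 and 0.00194, adjusted 0.00396 and 0.00388), with r = 0.594 after the same omission. Pon1 and Scgb3a2 gave r = 0.512 and rho = 0.564 (permutation p = 0.0153 and 9.30e-04, adjusted 0.0306 and 0.00279), with r = 0.560 without the 2 arrays farthest in Pon1. The other 3 pairs did not pass: Hsph1 with Scgb3a2 had r = 0.262 (adjusted p = 0.197), Cirbp with Pon1 r = -0.0771 (adjusted p = 0.599) and Cirbp with Scgb3a2 r = 0.0871 (adjusted p = 0.648). These arrays share 1 batch and its processing.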

How the data were processed

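Per the labels, lung tissue was stored in RNAlater, RNA was extracted with Trizol and RNeasy, and arrays were hybridised by the Affymetrix protocol. Deposited values are logarithms, read as log2; their base, background correction and normalization are not given in the sources used here. All array means lie within -0.00269 and 0.00334. Of 45101 probe sets 34958 had 1 gene symbol, and the probe set of highest mean stood for each of 18194 genes. The 13524 genes with at least 3 arrays above the median of all values (-0.386) were tested.

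With limma 3.58.1 (R 4.3.3), 1 mean per group was fitted over the arrays of the whole series, which gives groups a shared moderated spread. Genes were called at a Benjamini-Hochberg adjusted p under 0.05 over all genes. Errors are model SEs. Permutation tests used scipy 1.17.1, with 100000 permutations within groups for correlations. The labels number separate animals, and 4 arrays a group limit the precision. The code was tested on simulated data with known changes. Named genes are the 4 genes plotted first, the 12 largest rises and falls, all heat shock, cold-inducible and paraoxonase members, and up to 4 called members of other lists; other genes were chosen after their values were seen. The members and lists were chosen with earlier results of these data known.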

Additional observations from a re-analysis of the deposited data

Results flagged for a closer look

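Over 84 named genes, 168 groups of 4 arrays in MALA and FCO2 were examined, and in 8 of them a single array stood far from the other 3. The cutoff flags about 1 in 20 groups of independent values. Many of these genes were chosen by their calls and all share the same arrays, so the number is not judged against that rate. All 5 flags in MALA fell on replicate 4, and 3 flags fell in FCO2. In MALA replicate 4 the value of Upk3a was -0.41, where the other MALA arrays lay between 0.52 and 0.57, and that of Iyd was 0.15, where the others lay between -0.45 and -0.39. Hc was at 3.25 in the same array against 3.49 to 3.50 in the others, Ifit1 at 0.29 against 0.07 to 0.10, and Uqcrc1 at 2.79 against 3.11 to 3.14. Among chow controls, Dnajb4 was at 2.33 in FCO2 replicate 2 against 1.68 to 1.75 in the others, and Ier3 at 4.16 in FCO2 replicate 4 against 3.86 to 3.90. Nppa, the atrial natriuretic peptide of heart muscle, was at 1.65 in FCO2 replicate 1 against -0.71 to -0.43 in the others.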

How the results depend on the processing

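No paired analysis was possible because the replicate numbers only follow the order of deposit, and the labels give MALA and FCO2 different animal numbers. No named gene changed its direction across a call under the alternatives. Against chow, the genes higher and lower numbered 39 and 33 at an adjusted p under 0.01, 384 and 311 after quantile normalization, 237 and 164 over every probe set, 54 and 54 with the batch alone, and 532 and 419 against all 4 control sets of the batch. Lower genes numbered 198 with the arrays of the contrast alone and 237 with the amount to core as a factor. The fit with that amount used only the chow-fed groups of the batch. Leaving out single arrays gave 26 to 175 higher and 29 to 90 lower.

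Against the other exposures, higher genes numbered 39 at an adjusted p under 0.01, 1939 with no filter, 363 over every probe set, 456 with the contrast alone, 48 with the batch alone, 421 with the amount as a factor, 326 without DIAZ and 32 without NAAC. Lower genes numbered 267 at 0.01, 125 after quantile normalization, 576 with the mean of all probe sets, 2984 with the contrast alone, 544 with the batch alone, 2688 with the amount as a factor and 276 without NAAC. Leaving out single MALA arrays gave 59 to 142 higher and 374 to 659 lower.

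With the mean of all probe sets the heat shock median was -0.45 and that of the endoplasmic reticulum list -0.25. The club cell median was -0.12 after quantile normalization and -0.13 against all 4 control sets, where the MHC class II median was 0.0904. Leaving out single arrays gave medians of -0.0935 to -0.0265 for P450s, -0.253 to -0.0933 for club cells, -0.0515 to 0.0536 for goblet cells, -0.0866 to 0.612 for heart muscle and 0.17 to 0.33 for clock genes. The cause of these shifts was not tested. The base of the log scale and the normalization before deposit are unknown, and every fold rests on them.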
